A study of Rattus norvegicus with 39 samples.

Results

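RNAcentral is a public collection of noncoding RNA sequences, and 1 of the 4 deposited count tables held its rat entries. The tRNA entries described here were the rows of that table whose name gives the class tRNA and whose count, averaged over the 39 libraries, was 10 or more. They numbered 153 of the 1048 tRNA rows, of 78572 RNAcentral rows and of 80942 rows in all 4 tables. These 153 entries held 99.97% of the counts of the tRNA class and 28.8% of all RNAcentral counts. The lowest summed count among them was 399, and the highest among the rows left out was 382.

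The libraries came from sperm of the cauda epididymis, the storage end of the duct, of wild-type Fischer rats aged 11 to 12 weeks. The solvent ethylene glycol monomethyl ether (EGME), known to damage developing male germ cells, was given by mouth on 5 days, and 5 weeks without exposure followed. The groups were EGME0 (water, n = 10), EGME50 (50 mg/kg/d, n = 10), EGME60 (60 mg/kg/d, n = 9) and EGME75 (75 mg/kg/d, n = 10), with 1 male per library. Sperm were collected at a single time, so that the values describe that time alone.

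Transfer RNAs carry amino acids to the ribosome, and each is named for the amino acid it is charged with. Mature sperm translate little, but their small RNA is rich in fragments cut from tRNAs, and part of this cargo is gained in the epididymis. A read of such a fragment can be assigned either to a gene of the genomic tRNA table or to an RNAcentral entry of a near-identical sequence. Whether the authors counted a read in both tables is not given in the sources used here.

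Of the 153 entries, 57 named an amino acid and 96 named none. The unnamed entries held 87.2% of the counts of all 153, and the named ones held 12.8%. The names covered 18 amino acids and left out glutamate and histidine. Neither the anticodon nor the origin, nuclear or mitochondrial, is part of these names, and the files pair the unnamed identifiers with no amino acid. Counts were often repeated: the 153 entries had 125 distinct count patterns over the 39 libraries, and 50 entries fell into 22 sets with the same counts in every library, which cannot be told apart. In 5 patterns an entry with an amino acid and an entry without one had the same counts. No entry had the counts of a row of the genomic tRNA table.

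A single entry without an amino acid, URS0000221625, held 40.9% of the counts of the 153, and the 3 largest, all unnamed, held 66.0%. Within a library the largest entry made up 24.1% to 55.6% of the tRNA entry counts at EGME0 (median 34.3%), 14.4% to 64.1% at EGME50 (median 27.9%), 25.9% to 77.7% at EGME60 (median 42.3%) and 19.9% to 51.4% at EGME75 (median 38.4%). In 5 of 10 EGME50 libraries the share was below that of every control and in 1 above. At EGME60 0 of 9 were below and 2 above, and at EGME75 1 of 10 was below and 0 above. The ranges of all 4 groups overlapped. The entries whose level followed it most closely were URS0000570DC3, an aspartate entry (Pearson r = 0.92 of log2 CPM, counts relative to library size after the scaling described below, over 39 libraries), and 2 unnamed entries (r = 0.92 and 0.90). These correlations share library, depth and each library's scaling factor and are given as a description.

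Among the named entries the amino acids were far from evenly represented. Valine had 1236609 counts (27.9% of the named counts), arginine 749931 (16.9%), aspartate 744296 (16.8%), serine 555226 (12.5%) and tyrosine 296092 (6.67%). Glycine had 15284 counts (0.344%) and isoleucine 1668, the fewest. In the genomic tRNA table the order differed: glycine came first with 78587835 counts (34%), then serine with 55279099 (23.9%) and methionine with 22597667 (9.77%), while tyrosine had 46387 and came last of these 18. Tyrosine was thus the 1 amino acid with more counts in the RNAcentral entries than in the genomic table, by 6.38 to 1 over all libraries. Glycine, whose tRNA fragments are known to be abundant in sperm, stood at the other end with a ratio of 0.000194.

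Depth varied widely. Summed over the 4 tables a library held 244869 to 24308152 counts, and the 153 entries together 15601 to 2434425. The shallowest libraries were EGME75 replicate 24 and EGME0 replicate 33. In EGME60 replicates 22 and 38 and EGME75 replicate 7 the RNAcentral total was larger than the genomic tRNA total, and in no other library. The fits of single entries and of genomic sums were repeated without these libraries, but the shares and ratios were not recomputed without them.

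The first comparison asked what share of the RNAcentral counts the tRNA entries made up at each dose. At EGME0 the share was 28.7% to 51.9% with a median of 45.5%. At EGME50 it was 26.2% to 53.9% (median 42.1%), at EGME60 8.65% to 58.0% (median 35.1%) and at EGME75 2.50% to 38.7% (median 14.5%). In 9 of 10 EGME75 libraries the share lay below that of every control, and the EGME75 median was 3.13-fold lower. The rRNA class lay the other way: its medians were 42.3%, 45.1%, 50.7% and 73.9% from EGME0 to EGME75, and 9 of 10 EGME75 libraries were above every control.

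**Figure D1:**
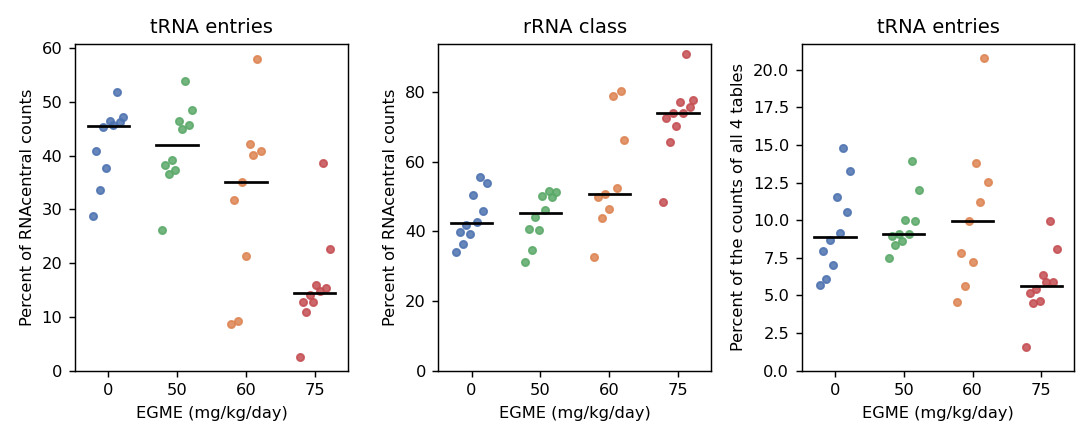
Shares by dose, 1 point per library and a bar at the group median: tRNA entries (left) and rRNA class (middle) as percent of RNAcentral counts, and tRNA entries as percent of the counts of all 4 tables (right). The tRNA entry median falls from 45.5% to 14.5% on the left axis and from 8.90% to 5.66% on the right, where the groups overlap more.

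Because a larger rRNA share leaves less room for any other class, the share was also taken over other totals. Without the rRNA class in the total, the tRNA entries made up a median of 75.6% of the remaining RNAcentral counts at EGME0 and 54.5% at EGME75, with 8 of 10 EGME75 libraries below every control. Over the 4 tables together their share was 5.71% to 14.8% at EGME0 (median 8.90%), 7.48% to 13.9% at EGME50 (median 9.10%), 4.58% to 20.7% at EGME60 (median 9.97%) and 1.60% to 9.94% at EGME75 (median 5.66%). On this total 5 of 10 EGME75 libraries were below every control, the median was 1.57-fold lower, and the EGME60 median was above that of control. The part of the rRNA counts in the lower share was not tested. In bulk sperm RNA, fewer cells with these RNAs and less of them per cell cannot be told apart.

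Other RNA differed with dose too. Mitochondrial rRNA made up a median of 10.7% of the 4 tables at EGME0 and 3.63% at EGME75, where all 10 libraries were below every control. In the miRNA table, the 5 germ cell miRNAs (miR-34b, miR-34c and miR-449a arms) summed to 197624 to 330892 CPM of that table at EGME0 and 64748 to 220530 at EGME75. The 5 epithelial miRNAs, all detected, summed to 6249 to 12877 CPM at EGME0 and 18090 to 47724 at EGME75, with no overlap. Of 7 blood miRNAs, 6 were in the table and 5 were above 0 in controls: they summed to 0 to 3432 CPM at EGME0 and 2478 to 48241 at EGME75. The 4 muscle miRNAs, all detected, summed to 9539 to 32667 and 11152 to 98000 CPM. The part of other cells' RNA in the results that follow was not tested.

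Single entries were compared between each dose and control with edgeR's quasi-likelihood test over all 2757 RNAcentral rows that passed the filter on low counts, and all 153 entries passed it. Levels are CPM, an entry's count relative to the library's RNAcentral total on a fixed common scale, after TMM scaling, which estimates a common scale between libraries from many rows at once. A change of 0 on this scale is not the middle of the rows: the median of all 2757 was -0.62 at EGME75. A call is an adjusted p (Benjamini-Hochberg over the 2757 rows) below 0.05.

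At EGME50 none of the 153 entries was called, with 6 at an unadjusted p below 0.05 (DESeq2 also called 0, with 4 unadjusted), against 1.52% of all rows. At EGME60, 7 entries were called (4.58%; all rows 20.9%), 3 higher (all rows 20.3%) and 4 lower (all rows 0.580%). At EGME75, 38 were called (24.8%; all rows 37.8%): 3 higher, or 1.96% (all rows 19.8%), and 35 lower, or 22.9% (all rows 18%). The share of lower calls was thus close to that of all rows. The lower calls comprised 10 entries with an amino acid and 25 without, in 30 distinct patterns. The median log2 change of the 153 was -0.80 at EGME75, where that of all rows was -0.62, and 143 of 153 were below 0. For the slope over dose, 20 entries were called (13.1%; all rows 27.8%), 3 higher (all rows 19.9%) and 17 lower (all rows 7.91%).

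How many entries were called rested on the scaling. At EGME75 there were 136 calls (133 lower) with relative log expression scaling, 120 (117 lower) with library totals, 141 (138 lower) with DESeq2 and 11 (6 lower) when the summed count of the tRNA entries was itself the library size. Calls among all 2757 rows moved too: 1041 with TMM, 1857 with relative log expression, 1423 with library totals, 1974 with DESeq2 and 672 on the tRNA total. The median of all 2757 rows was -0.62 with TMM, -1.38 with relative log expression and 0.01 on the tRNA total, so that changes are best read against it. Without filter there were 11 calls (all rows 3316 of 72139), and with the sequencing chip as a block 17 (all rows 671 of 2757). Leaving out 1 control also moved the count: there were 11 calls without EGME0 replicate 18, 14 without replicate 1, 22 without replicate 10 and 24 without replicate 9. The 7 calls at EGME60 were weaker still. No more than 1 was called again without filter or without the 3 libraries rich in RNAcentral counts, and 2 with the chip as a block. At EGME75 the same 3 entries stayed higher under each of the 10 alternatives, and 3 of those described below stayed lower under each.

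**Figure D2:**
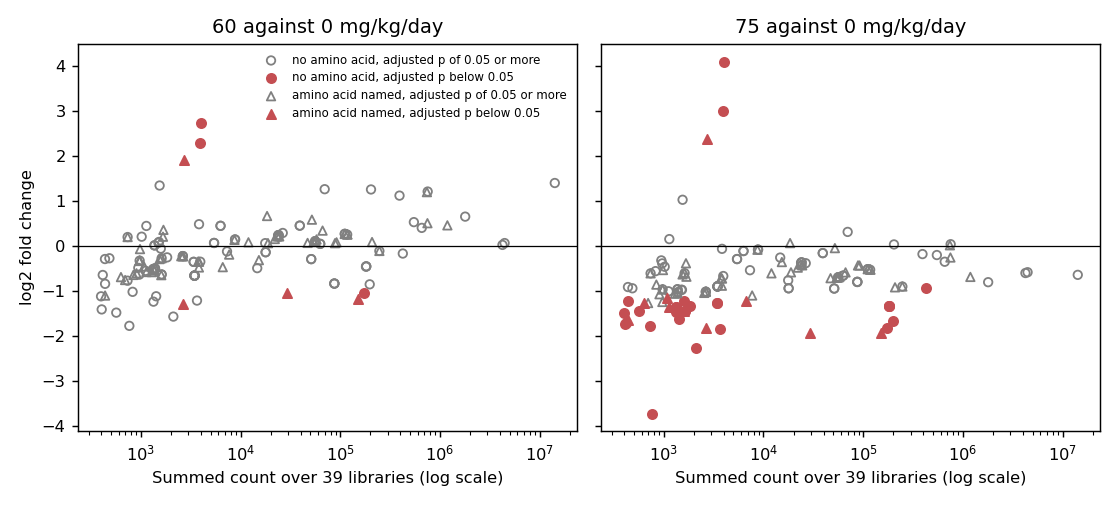
Log2 fold change of the 153 entries at 60 (left) and 75 mg/kg/day (right) against control, by summed count over 39 libraries (log scale); triangles name an amino acid and circles do not, and filled marks passed an adjusted p of 0.05. On the right most points lie below 0, 35 of them filled, and 3 filled marks lie well above.

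Methionine was the amino acid with every one of its entries called at EGME75, both of them lower. tRNA-Met reads the start codon as well as internal methionine codons, and the names do not separate the initiator from the elongator form. The entry URS000081F777 held 98.3% of the methionine counts of the RNAcentral entries. Its level was 473 to 4193 CPM at EGME0 (median 1834), 971 to 2590 at EGME50 (median 1562), 300 to 1900 at EGME60 (median 862) and 141 to 907 at EGME75 (median 546). All 10 EGME75 libraries were below the control median and 5 were below every control.

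URS000081F777 fell by 1.94 on the log2 scale at EGME75 (SE 0.39, adjusted p = 6.74e-05, edgeR), and by 1.18 at EGME60 (SE 0.40, adjusted p = 0.0222). At EGME50 its log2 change was -0.24 (SE 0.38, adjusted p = 1). The EGME75 call held under all 10 alternatives, with log2 changes from -2.72 to -1.38, and in all 20 fits without 1 library. The EGME60 call was kept under 8 of 10 alternatives and was lost without EGME60 replicate 14 or 38. The other methionine entry, URS000057244E, was scarce (2668 counts in all) but moved likewise, from a median of 35.4 CPM at EGME0 to 9.62 at EGME75. It fell by 1.83 at EGME75 (SE 0.48, adjusted p = 0.00182), a call lost on the tRNA total, and by 1.30 at EGME60 (SE 0.48, adjusted p = 0.0447), a call kept under 3 of 10 alternatives. Both methionine calls at EGME60 were lost without the 3 libraries rich in RNAcentral counts.

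In the genomic tRNA table methionine went the other way. Its summed count over 13 genes rose by 0.72 at EGME75 on that table's own scaling (SE 0.21, adjusted p = 0.00411), from a median of 6.22% of genomic tRNA counts at EGME0 to 13.7% at EGME75. The 2 tables were scaled separately, but the ratio of the 2 sums within a library needs no scaling. RNAcentral methionine counts over genomic ones were 0.00308 to 0.0197 at EGME0 (median 0.0147), 0.00459 to 0.0229 at EGME50 (median 0.00974), 0.000529 to 0.0128 at EGME60 (median 0.00406) and 0.000589 to 0.00574 at EGME75 (median 0.00166). In 8 of 10 EGME75 libraries the ratio was below that of every control, and the median was 8.85-fold lower, the widest gap of the 18 amino acids. As a share of the tRNA entry counts, methionine went from a median of 0.691% to 0.237%, so that its median was lower within the RNAcentral entries also. All 10 EGME75 libraries were below the control median of this share. Their range of 0.191% to 0.374% lay within that of control, 0.172% to 1.41%.

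Valine was represented by 3 entries that differed from each other. The largest, URS000044730B, held 96.1% of the valine counts and had medians of 12500 CPM at EGME0 (5736 to 21893), 7876 at EGME50 (5508 to 43372), 7903 at EGME60 (6635 to 74151) and 9193 at EGME75 (847 to 14323). Its log2 change at EGME75 was -0.70 (SE 0.49, adjusted p = 0.246), not a call, although 3 of the 10 alternatives called it lower. The smaller URS00004517CF (2.37% of valine counts) had 236 to 608 CPM at EGME0 (median 393), 164 to 483 at EGME50 (median 286), 59.1 to 338 at EGME60 (median 200) and 13.7 to 189 at EGME75 (median 99.8).

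For URS00004517CF the EGME75 and control libraries did not overlap. It fell by 1.95 at EGME75 (SE 0.39, adjusted p = 5.23e-05), under all 10 alternatives and in all 20 fits without 1 library. At EGME60 it fell by 1.05 (SE 0.39, adjusted p = 0.0453), a call kept under 5 of 10 alternatives and in 8 of 19 fits without 1 library. This EGME60 call was lost without the 3 libraries rich in RNAcentral counts. The third valine entry, URS000024B515, had a log2 change of 0.06 at EGME75 (SE 0.44, adjusted p = 0.924), and its sign turned in 5 of 10 alternatives. The genomic valine sum rose by 0.24 (SE 0.10, adjusted p = 0.032), and the valine ratio had a median of 0.108 at EGME0 and 0.0497 at EGME75, with 8 of 10 EGME75 libraries below every control.

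Asparagine held the only entry with an amino acid that was called higher. URS00001246A7, with 2741 counts in all, had 1.54 to 29.7 CPM at EGME0 (median 7.94), 5.69 to 34.8 at EGME50 (median 11.0), 7.44 to 136 at EGME60 (median 23.3) and 4.55 to 125 at EGME75 (median 39.6). Of the EGME75 libraries, 9 were above the control median and 7 above every control, and the lowest was the shallow replicate 24 with a single count. It rose by 2.37 at EGME75 (SE 0.56, adjusted p = 0.00058), under all 10 alternatives and in all 20 fits without 1 library. The rise of 1.91 at EGME60 (SE 0.56, adjusted p = 0.00724) was called again under 4 of 10 alternatives. That call was lost without EGME60 replicate 38 and without the 3 libraries rich in RNAcentral counts. Over the 10 alternatives the log2 change ran from 0.77 to 1.99.

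The larger asparagine entry, URS00007C9946, held 70.0% of the asparagine counts and was not called: its medians were 61.2 CPM at EGME0 and 68.3 at EGME75, with a log2 change of -0.09 (SE 0.44, adjusted p = 0.872). The genomic asparagine sum fell by 0.93 at EGME75 (SE 0.20, adjusted p = 0.000161). The asparagine ratio was accordingly higher, with 0.000542 to 0.00359 at EGME0 (median 0.00137) and 0.00141 to 0.00435 at EGME75 (median 0.00334), and all 10 EGME75 libraries were above the control median. Within the tRNA entries asparagine made up a median of 0.0230% at EGME0 and 0.0634% at EGME75, and 8 of 10 EGME75 libraries were above every control.

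The entries that rose most named no amino acid. URS00006FC38E had 2.40 to 11.0 CPM at EGME0 (median 7.22), 4.14 to 38 at EGME50 (median 11.6), 7.25 to 187 at EGME60 (median 13.1) and 12.4 to 307 at EGME75 (median 93.6). Every EGME75 library was above every control. It rose by 4.09 on the log2 scale at EGME75 (SE 0.61, adjusted p = 8.09e-07) and by 2.73 at EGME60 (SE 0.59, adjusted p = 0.000217), and in all alternatives at EGME75 by at least 2.70.

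URS0000669D54 likewise had no EGME75 library within the control range: 0 to 22.1 CPM at EGME0 (median 10.2), 3.84 to 144 at EGME50 (median 25.2), 11.5 to 160 at EGME60 (median 32.4) and 23.1 to 202 at EGME75 (median 58.7). It rose by 3.0 at EGME75 (SE 0.59, adjusted p = 4.62e-05) and by 2.28 at EGME60 (SE 0.58, adjusted p = 0.0018). Both were scarce, with 4059 and 3932 counts over the 39 libraries, or 0.0117% and 0.0113% of the tRNA entry counts. The EGME60 call was kept under 8 of 10 alternatives for URS00006FC38E and under 5 of 10 for URS0000669D54, and both were lost with library totals and with the chip as a block, and both EGME75 calls held in all 20 fits without 1 library.

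**Figure D3:**
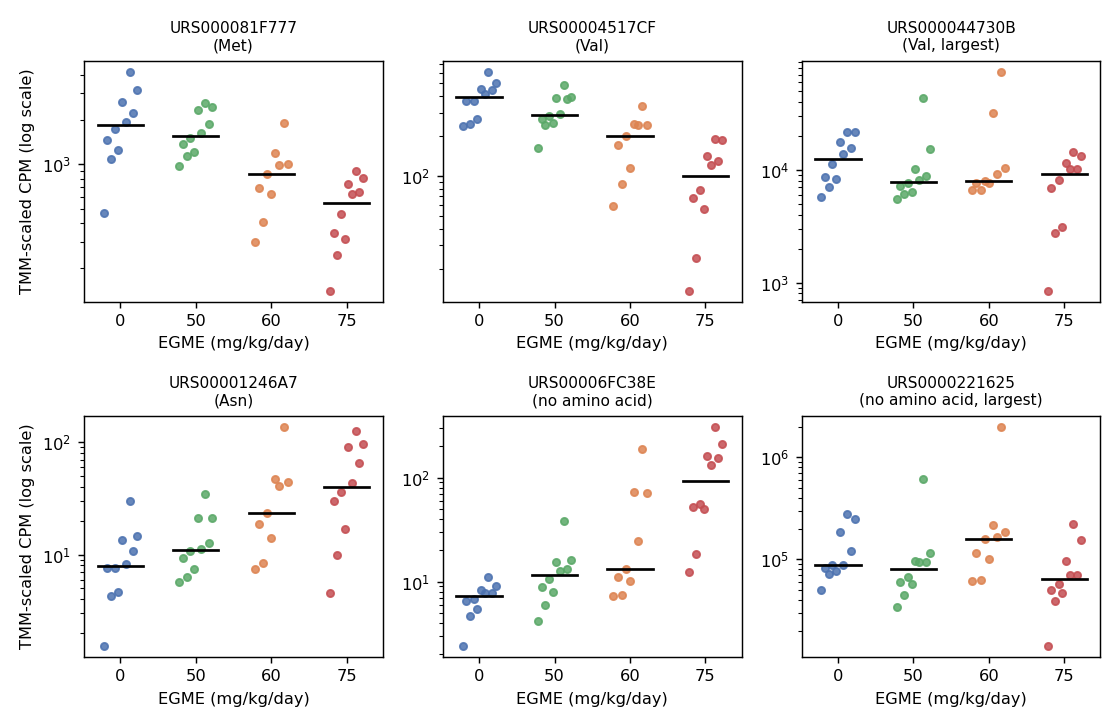
TMM-scaled CPM (log scale) of 6 tRNA entries by dose, 1 point per library and a bar at the group median. The EGME75 points of URS00004517CF lie below and those of URS00006FC38E above every control, whereas the largest entries URS000044730B and URS0000221625 overlap between groups.

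Of the 25 unnamed entries called lower at EGME75, the one with the smallest adjusted p was URS000028D440 (174898 counts). It had 582 to 4327 CPM at EGME0 (median 2051), 1131 to 2928 at EGME50 (median 1860), 452 to 2318 at EGME60 (median 1101) and 164 to 1060 at EGME75 (median 635). It fell by 1.84 at EGME75 (SE 0.38, adjusted p = 9.19e-05), under all 10 alternatives, and by 1.06 at EGME60 (SE 0.38, adjusted p = 0.0393), where 8 of 10 alternatives and 8 of 19 fits without 1 library kept the call. Its EGME60 call was lost without the 3 libraries rich in RNAcentral counts. URS000067DE83 fell by 2.29 at EGME75 (SE 0.79, adjusted p = 0.02), from a median of 32.1 CPM to 5.93. That call was kept under 8 of 10 alternatives, and the chip as a block was among those that lost it. It was also lost without EGME0 replicate 1, 10 or 18. The lowest fitted log2 change of all, -3.73 (SE 1.11, adjusted p = 0.00667), belonged to an unnamed entry with 0 counts in 4 control and 7 EGME75 libraries, where 1 control held 130 CPM and the control median was 1.32, so that its size rests on few libraries.

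The largest entry of all, URS0000221625, was not called at any dose. Its level was 50160 to 275715 CPM at EGME0 (median 88100), 34293 to 605305 at EGME50 (median 80698), 61266 to 1976770 at EGME60 (median 158643) and 14166 to 220511 at EGME75 (median 63570). The log2 change was 1.39 at EGME60 (SE 0.60, adjusted p = 0.102) and -0.65 at EGME75 (SE 0.58, adjusted p = 0.359). The highest value belonged to EGME60 replicate 6, with an RNAcentral total of 3689539 counts but an effective size of 840932 after its TMM factor of 0.228. A level scaled in this way can exceed the library's own total, so it is not a share of the library. The ranges of all 4 groups overlapped.

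In aspartate the scarce entries fell and the abundant one was not called. URS0000570DC3 held 99.6% of the aspartate counts and had medians of 4791, 5033, 6958 and 4552 CPM from EGME0 to EGME75, with a log2 change of 0.01 at EGME75 (SE 0.50, adjusted p = 0.992). Its sign turned in 5 of 10 alternatives, and with library totals it was called lower (log2 change -0.86, adjusted p = 0.0358, edgeR). The other 3 aspartate entries, with 438 to 1604 counts each, fell by 1.36 to 1.66 at EGME75 (adjusted p = 0.0321, 0.0244 and 0.0176), and 6 to 8 of 10 alternatives kept those calls. The ratio to the genomic aspartate sum had medians of 0.147 at EGME0 and 0.135 at EGME75. Within the tRNA entries its share had medians of 1.62% and 2.93%.

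Leucine, lysine and phenylalanine supplied the remaining lower calls with an amino acid, all from scarce entries. URS00005ACB45 (Leu, 6636 counts) fell by 1.23 (SE 0.47, adjusted p = 0.0362), and URS000042C553 (Leu, 1333 counts) by 1.36 (SE 0.48, adjusted p = 0.0225), with the same counts as 2 unnamed entries. URS00000A0F76 (Lys, 1077 counts) fell by 1.17 (SE 0.45, adjusted p = 0.0361), and URS00008155B8 (Phe, 632 counts) by 1.27 (SE 0.52, adjusted p = 0.0472). Each was called under 5 or 6 of its alternatives. The abundant entries of leucine and lysine were not called: URS000015C515 (Leu) had a log2 change of -0.44 (adjusted p = 0.3) and URS00007CD538 (Lys) of -0.44 (adjusted p = 0.386).

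Tyrosine had 8 entries, the most of any amino acid, and none was called at any dose. At EGME75 their log2 changes ran from -1.08 to -0.60. The largest, URS0000057349, held 22.5% of the tyrosine counts and had medians of 520 CPM at EGME0 (358 to 934), 616 at EGME50 (493 to 1453), 694 at EGME60 (142 to 1192) and 284 at EGME75 (72.9 to 703), with 6 of 10 EGME75 libraries below every control. Its adjusted p was 0.208. The genomic tyrosine sum rose by 0.83 at EGME75 (SE 0.28, adjusted p = 0.0119). The ratio of the tyrosine sums was 2.48 to 24.1 at EGME0 (median 10.9), 2.74 to 20.5 at EGME50 (median 12.4), 0.182 to 30.7 at EGME60 (median 6.90) and 0.483 to 10.8 at EGME75 (median 1.98). In 7 of 10 EGME75 libraries it was below every control, and the median was 5.50-fold lower.

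Glutamine, lysine and tryptophan showed the same order of medians in the ratio, as did cysteine, proline and threonine. For glutamine it was 0.156, 0.216, 0.119 and 0.0529 from EGME0 to EGME75, with 7 of 10 EGME75 libraries below every control. Lysine had medians of 0.0157, 0.0200, 0.0121 and 0.00583, with 9 of 10 below every control, and its genomic sum rose by 0.80 at EGME75 (SE 0.15, adjusted p = 1.72e-05). Tryptophan had medians of 0.0201 at EGME0 and 0.00585 at EGME75, with 5 of 10 below every control. The largest glutamine entry, URS000000905A, was at a median of 2415 CPM at EGME0 and 1210 at EGME75 (log2 change -0.91, SE 0.40, adjusted p = 0.0633), and the largest tryptophan entry, URS00007BFBC5, at 24.9 and 8.84 CPM (log2 change -1.02, SE 0.47, adjusted p = 0.0784). Neither was a call.

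**Figure D4:**
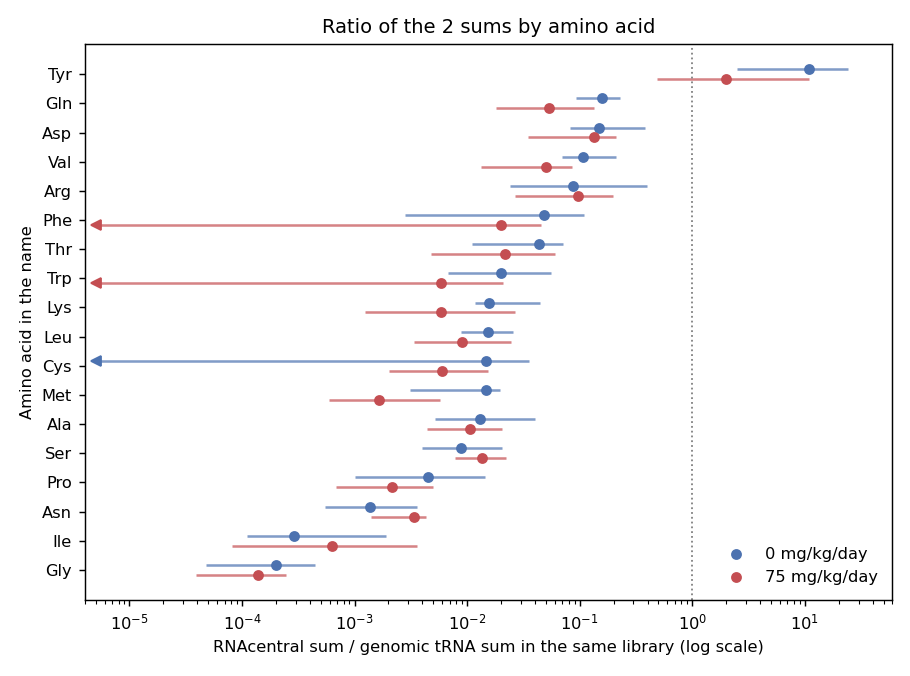
Counts of the RNAcentral tRNA entries divided by genomic tRNA counts of the same amino acid within a library (log scale), with the median (point) and range (line) of the EGME0 and EGME75 groups; arrowheads mark a lowest value of 0. Tyrosine alone has medians above 1 (dotted line), and methionine shows the widest gap between the group medians, from 0.0147 to 0.00166.

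Over all 153 entries the ratio to the genomic table had a narrower gap than those of methionine and tyrosine: it was 0.0720 to 0.284 at EGME0 (median 0.138), 0.0981 to 0.222 at EGME50 (median 0.139), 0.0992 to 0.342 at EGME60 (median 0.162) and 0.0461 to 0.147 at EGME75 (median 0.0969). Its EGME75 median was 1.42-fold lower than control, with 2 of 10 libraries below every control, and the entries with an amino acid behind the single ratios held 12.8% of the counts.

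Over the 18 amino acids the EGME75 median of the ratio was below the control median for 14 and above it for 4 (arginine, asparagine, isoleucine and serine). For serine the ratio was 0.00401 to 0.0202 at EGME0 (median 0.00878) and 0.00786 to 0.0222 at EGME75 (median 0.0137). The genomic serine sum fell by 1.66 at EGME75 (SE 0.26, adjusted p = 1.21e-06), from a median of 30.6% of genomic tRNA counts to 12.1%, with no overlap between the groups. The largest serine entry of RNAcentral, URS000007A50F, had medians of 2462 CPM at EGME0 and 1371 at EGME75 (log2 change -0.93, SE 0.42, adjusted p = 0.0769). The genomic isoleucine sum fell by 1.54 (SE 0.20, adjusted p = 5.58e-08), while the 1 isoleucine entry, URS00007BC922, had a log2 change of -0.39 (SE 0.52, adjusted p = 0.549). The ratio is lower where the genomic sum is higher, so these values describe both tables at once.

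The entries of arginine, alanine, glycine, threonine, cysteine, proline and phenylalanine had log2 changes between -1.28 and -0.06 at EGME75. The largest entry of each was not called. The arginine entry URS00005B526A had medians of 5108 CPM at EGME0 and 4440 at EGME75, and the threonine entry URS000018C059 of 295 and 273. URS000018C059 was higher at EGME50, with a median of 597 CPM and a lowest value of 504 against a control maximum of 492, but its log2 change of 0.96 (SE 0.37, adjusted p = 0.237) was not a call. The single glycine entry, URS00004C4355, had medians of 151 and 88.3 CPM (log2 change -0.37, SE 0.43, adjusted p = 0.492).

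For the genomic table as a whole, 20 amino acid sums were tested. At EGME50, 0 were called (0% of the 20; edgeR, with 1 at an unadjusted p below 0.05, and DESeq2 also 0), at EGME60 6 (30%), at EGME75 11 (55%) and for the slope 10 (50%). At EGME75, 5 rose (tyrosine, lysine, methionine, histidine and valine) and 6 fell (serine, isoleucine, asparagine, alanine, phenylalanine and arginine), and with library totals in place of TMM 10 rose and 3 fell. The 6 calls at EGME60 became 0 with the chip as a block, 2 without the 3 libraries rich in RNAcentral counts and 3 without EGME60 replicate 38. Set beside the genomic sums that rose, the 2 methionine entries, 1 of 3 valine entries and 1 of 3 lysine entries were called lower. None of 8 tyrosine entries was called, and histidine had no entry. Beside those that fell, 1 of 5 phenylalanine entries was called lower too (the genomic sum fell by 0.70, SE 0.15, adjusted p = 0.000161). All 5 phenylalanine entries had similar log2 changes, from -1.28 to -1.06, so the calls do not set them apart. Of the 3 asparagine entries 1 was called higher, and no entry of alanine, arginine, isoleucine or serine was called. Entries of aspartate (3 of 4) and leucine (2 of 6) were called lower where the genomic sum was not called.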

How the data were processed

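Small RNA of 39 sperm libraries (10, 10, 9 and 10 males at 0, 50, 60 and 75 mg/kg/d) was analysed. Per the labels' protocols, extraction used the mirVana kit with DNase, and libraries were built from 10 ng with the Ion total RNA-seq kit; 13 chips held 3 libraries each. The authors deposited raw counts of sense-strand reads in 4 tables (78572 RNAcentral entries, 402 genomic tRNA genes, 1563 noncoding transcripts, 405 mature miRNAs). The submitters' processing notes name FastQC, Bowtie and DESeq2 without versions; the table names give the build Rnor_6.0. The counting program and how reads with several matches were handled are not given in the sources used here, so near-identical tRNAs are uncertain.

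Each dose was compared with control in edgeR 4.0.16 (R 4.3.3, limma 3.58.1): TMM scaling (RNAcentral factors 0.212 to 2.47), filterByExpr by group, robust quasi-likelihood fits over all 39 libraries, two-sided tests, and Benjamini-Hochberg adjustment over 2757 RNAcentral rows or 20 genomic amino acid sums (2 tRNA genes without a known amino acid were left out), with a threshold of 0.05. Each log2 fold change has its standard error (SE); the slope is scaled to the span from 0 to 75 mg/kg/d. The fits were tested on simulated data in which as many rows were raised as lowered. A shift between RNA classes, such as that of the rRNA share, was not simulated. Shares and ratios over entries have no test. The amino acid's largest entry, and the 5 highest and 5 lowest called log2 changes at EGME60 and EGME75, were to be named, with no more than 2 identifiers per direction printed of entries without an amino acid. Alternatives were relative log expression scaling, library totals, the sum of the 4 tables, no filter, the chip as a block, DESeq2 1.42.0, 1 row per set of identical rows and leaving out each library; 3 more were chosen after seeing the data (the tRNA entry total as library size, leaving out the 2 shallowest libraries, and leaving out the 3 libraries with more RNAcentral than genomic tRNA counts). The members and lists were chosen with earlier results of these data known. None of the 153 entries matched the RefSeq sequence tables used, so no sequence is printed. Shares and summaries used Python 3.11.15 (numpy 2.4.6, pandas 2.3.3).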

Additional observations from a re-analysis of the deposited data

Results flagged for a closer look

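A library was marked where its gap to the nearest of its group, divided by the group's range, was above Dixon's critical value at the 95% level. Of 148 group checks (18 amino acids by ratio and by share, and the share of all entries, in 4 groups), 24 gave a mark. The critical value holds for normally distributed values, and these ratios and shares were not put on a log scale. The count is therefore not set against a rate expected by chance. All marks were on the high side. Several fell on the same libraries.

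In EGME0 replicate 25 the ratio of RNAcentral to genomic counts was high for alanine (0.0400), arginine (0.399) and isoleucine (0.00191). In EGME60 replicate 13 it was high for alanine (0.0584), arginine (0.688), lysine (0.0727) and proline (0.0120). In EGME50 replicate 28 it was high for arginine (0.342), lysine (0.0578), phenylalanine (0.125) and proline (0.0161). EGME50 replicate 35 was high in the leucine ratio (0.0308) and the serine ratio (0.0235), and in the leucine share (1.22%) and tyrosine share (2.53%) of the tRNA entry counts.

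EGME75 replicate 16 had the highest ratios of its group for lysine (0.0264), methionine (0.00574) and tyrosine (10.8). EGME75 replicate 24, the shallowest library, was high in the isoleucine ratio (0.00357). Isoleucine made up 0.0128% of its 15601 tRNA entry counts, so that this ratio rests on very few counts. EGME60 replicate 6 was high in the aspartate ratio (0.396). By share, EGME60 replicate 38 was high for aspartate (5.09%), EGME60 replicate 30 for tyrosine (2.04%), and EGME75 replicate 39 for leucine (1.59%) and serine (2.81%).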

How the results depend on the processing

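Calls of tRNA entries at EGME60, EGME75 and for the slope (7, 38 and 20) became 19, 136 and 84 with relative log expression scaling, 27, 141 and 104 with DESeq2, 1, 11 and 8 without filter, and 2, 17 and 10 with the chip as a block. Calls over all rows, 575, 1041 and 766 of 2757, became 532, 1857 and 1205 with relative log expression and 661, 1974 and 1566 with DESeq2. They became 2348, 3316 and 4887 of 72139 without filter, and 435, 671 and 591 with the chip as a block. Library totals gave 120 at EGME75 and 46 for the slope, the summed total of all 4 tables gave 13 for the slope, and the tRNA entry total 11 at EGME75 and 9 for the slope. Over all 2757 rows library totals gave 1423 and 825, the summed total 624, and the tRNA entry total 672 and 671. Without the 3 libraries rich in RNAcentral counts EGME60 had 1 call and 2 genomic sums; with the chip as a block it had 0 genomic sums. Leaving out 1 library at a time gave 0 to 2 calls at EGME50, 2 to 13 at EGME60 (2 without EGME60 replicate 38, 3 without replicate 14, 13 without EGME0 replicate 26), 11 to 50 at EGME75 and 10 to 36 for the slope (10 without EGME0 replicate 10, 36 without EGME50 replicate 3), and 3 to 9, 10 to 11 and 9 to 10 genomic sums at EGME60, EGME75 and for the slope. Over the 4 tables the log2 ratio of the median tRNA share at EGME75 to control was -0.65 in place of -1.65. The cause of these differences was not tested. For single entries and amino acid ratios, 448 values under alternatives kept their direction and were counted as unchanged. A further 64 were counted as unchanged but turned in sign without a call. Another 46 were called only under the alternative and 35 lost their call. For an entry, unchanged meant the same side of the threshold. For a ratio, which has no test, it meant a shift smaller than the pooled standard deviation of its log2 values. The uncalled URS0000570DC3 (Asp) at EGME75, was called lower with library totals (log2 change -0.86, in place of 0.01). The count of 14 lower ratios was 14 in both alternatives run. No paired analysis was possible because no replicate number occurs in more than 1 dose group. Depth limits the scarce entries: 71 of the 153 had 0 counts in at least 1 library, and smaller changes in such entries may not be detectable at this depth.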

Other observations

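Outside the 153 entries, 85 RNAcentral rows named a tRNA but gave no RNA class, with 285486 counts in all, and 27 of them had a count of 10 or more averaged over the libraries. They included the amino acids that the 153 entries lacked in part: 8 glutamate rows held 30687 counts, and 1 selenocysteine row held 4074. The 7 valine rows held 144769 counts, the 12 leucine rows 55503 and the 5 arginine rows 30821. In CPM of the RNAcentral total, these rows together stood at 1197 to 10993 at EGME0 (median 3190), 1259 to 10613 at EGME50 (median 3095), 522 to 5226 at EGME60 (median 1752) and 333 to 1940 at EGME75 (median 1101). In 6 of 10 EGME75 libraries they were below every control. The selenocysteine row, whose tRNA inserts the amino acid of selenoproteins, stood at 15.8 to 107 CPM at EGME0 (median 42.2) and 12.4 to 34.8 at EGME75 (median 25.9). The RNAcentral total behind these CPM held a median of 42.3% rRNA at EGME0 and 73.9% at EGME75. The part of the rRNA counts in these lower levels was not tested.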
